A study of Mus musculus with 2 samples.

Results

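The genes described here are 36 type I interferon response genes of the mouse, taken as a list of names and read as raw unique molecular identifier (UMI) counts; all 36 were present, each once, among the 31053 genes of both count matrices. Both groups were C57BL/6 mice, with no genotype given beyond the strain, and both carried an intracranial tumour of GL261, a mouse glioma line from the same strain. They differed in the drinking water, which was DW control water for 1 group and water with metformin, a biguanide used against diabetes, for the other. On day 20 after injection the tumour region was dissected and CD45hi cells (cells bright for the pan-leukocyte protein CD45) were sorted and profiled with 10x Genomics 3′ version 3 chemistry. Each group gave 1 library, and the labels do not state the animals' age, the metformin dose or how many mice were pooled. The cells are labelled as infiltrating lymphocytes, yet microglia, macrophages, monocytes and dendritic cells made up many of them.

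Type I interferons signal through a receptor of IFNAR1 and IFNAR2 chains and the kinases JAK1 and TYK2, which act on STAT2 among others. With IRF9 it takes part in a complex that binds the interferon-stimulated response element (ISRE) in the promoters of antiviral genes. The products sense or degrade viral RNA, block viral replication, attach the ubiquitin-like protein ISG15 to other proteins, and feed back on the pathway, USP18 and SOCS1 as brakes and IRF7 as an amplifier. In tumours, the same genes are read as a sign of interferon signalling in immune cells.

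After filtering, 5373 cells of the control library and 4569 of the metformin library remained, with medians of 7295 and 7926 UMIs per cell. They fell into 41 clusters, which were joined into 22 classes named from marker genes or from their leading genes, while 8 clusters stayed unnamed. A class name such as NK means NK-like by its markers. Comparison between libraries was limited to the 15 classes with 50 or more cells on both sides. The libraries shared 9 barcodes, 8 of them among retained cells. With 1 library per group there is no test. Intervals are 95% intervals for counting error only, exact except for ratios of shares, where they are wider than exact. An effect of metformin cannot be told apart from a difference between mice, sorts or captures.

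The promoters show a sequence element that part of the members share. RefSeq promoter windows on GRCm38.p6, from 250 bases before to 50 after a start, were found for 28 of the 36 members. The ISRE core was searched as GAAA and GAAA with any 2 bases between them, or TTTC and TTTC likewise for the other strand, with overlapping matches counted. It occurred in 15 of 28 members (53.6%) and in 1063 of 26996 other genes (3.94%), and at least 2 matches occurred in 6 members (21.4%) and in 0.241% of other genes. Ifit2, Irf7, Irf9, Oasl1 and Oasl2 were among the members with a window and no ISRE match. The palindromic TTCNNNGAA, a GAS-type element, occurred in 6 members (21.4%) and 9.54% of other genes. The 8 windows of 40 bases printed here were taken from members with a match and lie upstream of the start of members described later. They run 5′ to 3′ on the gene's own strand and have the matched letters in capitals. The capitals at the end of the Ifit1 window begin a match that runs past it.
Ifit1, chr19:34640770-34640809, plus strand: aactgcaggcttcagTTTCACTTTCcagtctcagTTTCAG
Ifit3, chr19:34583358-34583397, plus strand: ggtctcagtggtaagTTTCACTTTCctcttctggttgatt
Ifit3b, chr19:34607754-34607793, plus strand: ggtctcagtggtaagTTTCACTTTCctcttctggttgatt
Isg15, chr4:156200872-156200911, minus strand: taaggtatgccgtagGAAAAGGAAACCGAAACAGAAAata
Rsad2, chr12:26456548-26456587, minus strand: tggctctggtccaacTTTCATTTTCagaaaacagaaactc
Oas3, chr5:120777710-120777749, minus strand: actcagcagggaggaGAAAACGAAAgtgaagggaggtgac
Stat2, chr10:128270261-128270300, plus strand: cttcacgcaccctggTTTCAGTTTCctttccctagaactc
Bst2, chr8:71537578-71537617, minus strand: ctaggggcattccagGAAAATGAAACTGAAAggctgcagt
The windows of Ifit3 and Ifit3b were identical letter for letter, Isg15 held 3 overlapping matches, and Bst2 held 2. These matches are descriptions of sequence and were not tested as binding sites.

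The members lay on 15 chromosomes, and 13 of them had another member within 1 Mb, in 5 groups. The Ifit genes stood together on mouse chromosome 19, Oas1a, Oas2 and Oas3 together on chromosome 5, and Rsad2 next to Cmpk2 on chromosome 12. Counting could mix close copies: of the 50-base words in the last 600 bases of its transcripts, Oas1a shared 64.1% with another gene, Phf11b 37.9%, Herc6 23.4%, Ifit3 17.97% and Trim30a 17.8%. Values of these 5 genes are uncertain by an amount that was not measured. A gene on the same strand overlapped 5 members, namely Irf9, Rtp4, Parp14, Sp100 and Herc6.

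Over all cells the members stood at 6390 CPM in the control library and 6195 CPM in the metformin library, CPM being UMIs on the usual counts-per-million scale of the cells concerned. Ifi27l2a, Bst2, Isg15, Sp100 and Zbp1 supplied 61.1% and 60.5% of those UMIs. A UMI counts a molecule at its 3′ end whatever the transcript's length, so CPM was compared between genes and between classes. The class highest for a member, among the 19 classes of 20 or more cells on both sides, was the same in both libraries for 18 of the 36 members.

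Regulatory T cells had the highest summed level, 13989 and 13354 CPM in the control and metformin libraries, and this came mainly from Ifi27l2a, a small interferon-inducible membrane protein. Ifi27l2a stood there at 9509 (9380 to 9640) and 9484 (9360 to 9610) CPM, and in conventional CD4 T cells at 6900 and 5261 CPM. NK cells were lowest for it, at 170.3 (156 to 186) and 104 (93.8 to 114) CPM. Arg1 macrophages came close in summed level, 12985 and 10146 CPM, with a broader use of the list. Their 12 core genes (Ifit1, Ifit2, Ifit3, Ifit3b, Isg15, Mx1, Oas3, Oasl1, Oasl2, Rsad2, Usp18 and Cmpk2, members that are low without interferon) summed to 3593 and 2731 CPM, against 1000.2 and 781 in regulatory T cells. Of the compared classes, P2ry12 microglia were lowest, at 1590 and 1632 CPM for all members and 154 and 157 CPM for the core. The unlike sources of the regulatory T cell and macrophage sums are visible in the map of member levels by class.

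**Figure D1:**
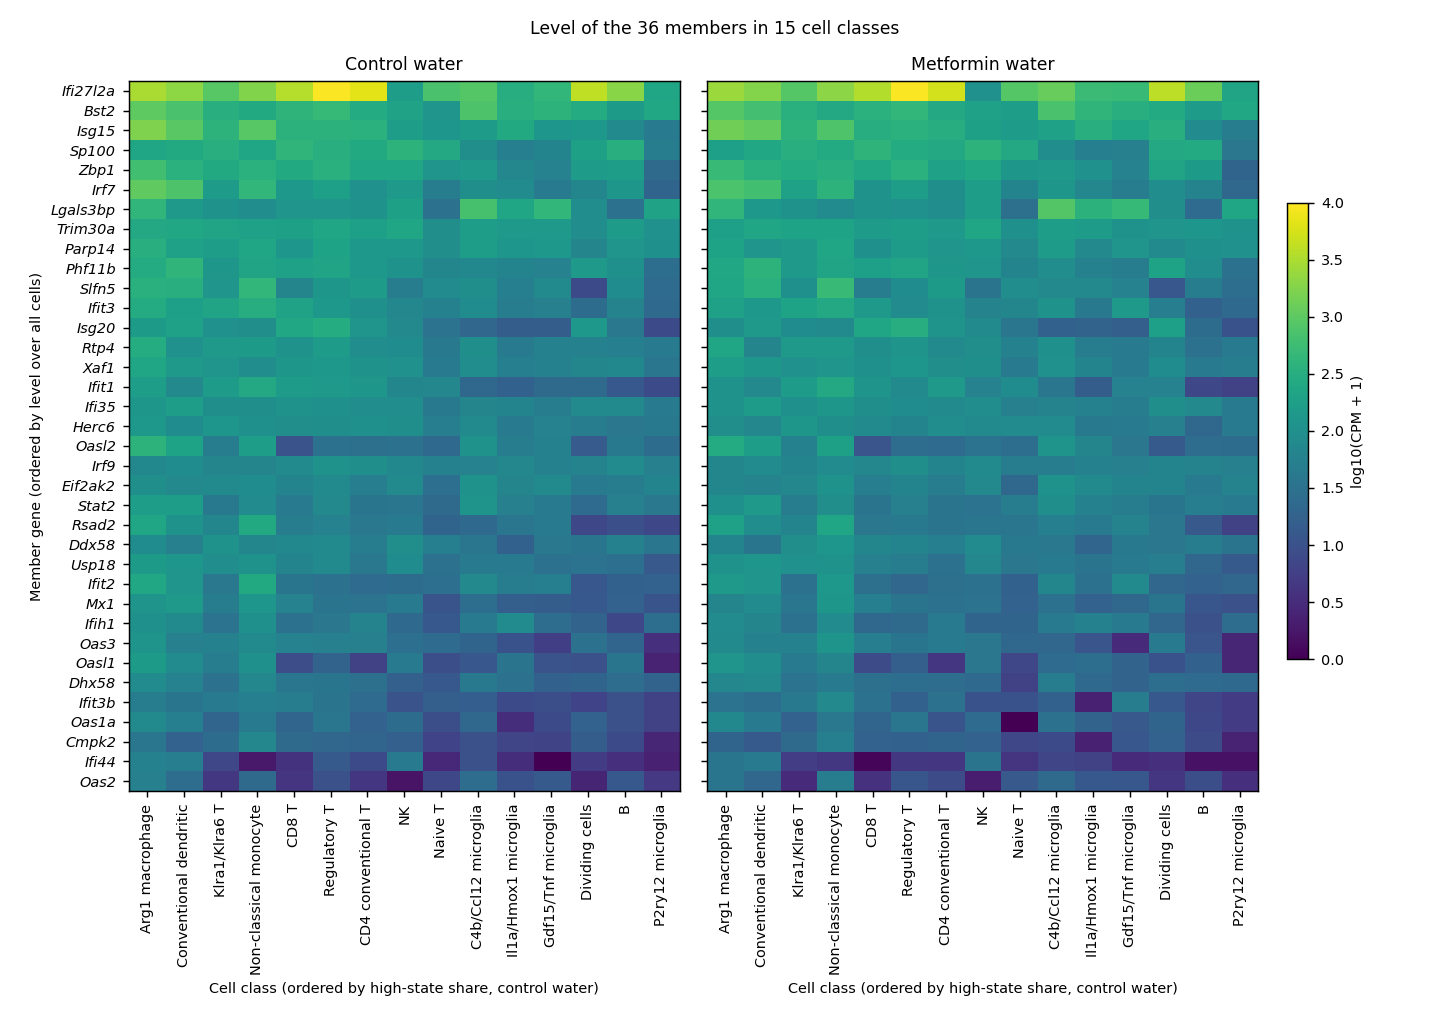
Level of each of the 36 members (rows, log10 of CPM plus 1) in the 15 compared classes (columns) of the control library (left) and the metformin library (right). The row of Ifi27l2a is brightest in regulatory T cells (9509 and 9484 CPM), the Arg1 macrophage column is bright over most rows, and the P2ry12 microglia column is dark over most.

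Among the effectors that bind viral RNA, the tetratricopeptide proteins Ifit1, Ifit2, Ifit3 and Ifit3b, non-classical monocytes led for 3 of 4 in both libraries (all but Ifit2). In non-classical monocytes Ifit1 stood at 256 (227 to 288) CPM in the control and 259.9 (220.3 to 305) CPM in the metformin library. In P2ry12 microglia it stood at 7.01 (4.93 to 9.66) and 5.21 (3.09 to 8.24) CPM. The Klra1/Klra6 T cells, a class led by Ly49 receptor genes, were the highest lymphoid users of Ifit1 in the metformin library, at 164 (148 to 180.1) CPM, and held the same 164 (147 to 181) CPM in the control.

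Oligoadenylate synthetases make the second messenger that activates RNase L, and their use differed between classes. The 5 genes summed to 786 and 593 CPM in Arg1 macrophages, 99.0 and 90.8 CPM in CD8 T cells, 176 and 175 CPM in Klra1/Klra6 T cells and 37.9 and 35.0 CPM in P2ry12 microglia, so myeloid classes stood at both ends. Oasl2 stood at 381 (363 to 400.4) and 286 (272 to 301) CPM in Arg1 macrophages. CD8 T cells were lowest, at 9.44 (6.98 to 12.5) and 10.4 (7.99 to 13.4) CPM, although they had 159 and 118 CPM of Ifit1. Oasl1, which lacks synthetase activity, had 152 (141 to 165) and 119 (110 to 129) CPM in Arg1 macrophages and 7.90 (5.67 to 10.7) and 7.40 (5.37 to 9.93) CPM in CD8 T cells, and P2ry12 microglia were lower still, at 1.51 and 1.74 CPM. Oas1a was highest in Arg1 macrophages in both libraries, at 82.1 and 71.4 CPM, within the uncertainty of its shared sequence.

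Other antiviral effectors had leaders of their own. Bst2, tetherin, which holds budding virus at the cell surface and marks plasmacytoid dendritic cells, reached 3769 (3542 to 4007) and 4288 (4106 to 4476) CPM in those cells, which numbered 21 and 35. The next class, Arg1 macrophages, had 1011 and 893 CPM. Rsad2 (viperin, a radical enzyme that makes a chain-terminating nucleotide) was highest in non-classical monocytes, at 272 (243 to 305) and 233 (195 to 275) CPM. Isg20, an RNA exonuclease, was highest in T cells: regulatory T cells had 295 (272 to 318) and 314 (292 to 338) CPM, and CD8 T cells 237 and 228 CPM. Arg1 macrophages had 148 and 95.6 CPM of Isg20, above B cells at 38.4 and 24.8 CPM, and P2ry12 microglia were lowest at 6.82 and 9.27 CPM. Ifi44 separated NK cells, at 43.2 (36.2 to 51.2) and 33.8 (28.3 to 40.01) CPM, from CD8 T cells, at 2.89 (1.62 to 4.77) and 0.168 (0.00426 to 0.936) CPM.

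Isg15, the ubiquitin-like modifier, was the most abundant core gene. It stood at 1665 (1626 to 1704) and 1373 (1341 to 1406) CPM in Arg1 macrophages and at 1453 (1330 to 1583) and 1641 (1543 to 1744) CPM in mature dendritic cells, so the order of these classes turned between libraries. P2ry12 microglia had 43.4 (37.9 to 49.4) and 48.4 (41.3 to 56.3) CPM. Usp18, the protease that removes ISG15, had 149 and 110 CPM in Arg1 macrophages. The nucleic acid sensor Zbp1 was highest in Arg1 macrophages in both libraries, at 615 (592 to 639) and 515 (495 to 535) CPM.

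Of the transcription factors, Irf7 ranged most. It stood at 1047 (1016 to 1078) and 741 (718 to 765.5) CPM in Arg1 macrophages, at 754 and 624 CPM in conventional dendritic cells, and at 18.2 and 20.6 CPM in P2ry12 microglia. Irf9 was flat by comparison, with 73.1 and 67.0 CPM in Arg1 macrophages and 54.0 and 53.3 CPM in P2ry12 microglia. Among the remaining members, Lgals3bp, a secreted galectin-binding protein, was highest in C4b/Ccl12 microglia, at 672 (644 to 702) and 840 (810 to 872) CPM. Gdf15/Tnf microglia had 437 and 470.4 CPM, Arg1 macrophages 432 and 423 CPM, and B cells were lowest at 29.8 and 24.2 CPM. Sp100, a nuclear body protein, was highest in cytotoxic lymphocytes, with 410 (392 to 427) and 393 (378 to 410) CPM in CD8 T cells and 380 (359 to 403) and 379 (360 to 399) CPM in NK cells, so that neighbouring classes in its order had overlapping intervals. Slfn5 was highest in non-classical monocytes, at 439 and 498 CPM, and lowest in dividing cells, at 6.87 and 11.1 CPM.

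To count cells with a strong response at equal depth, each cell was thinned to 3000 UMIs, and a cell with at least 4 of the 12 core genes was called high. This left out 396 control and 307 metformin cells as too shallow. High cells numbered 698 of 4977 (14.02%, 13.1 to 15.02) in the control library and 594 of 4262 (13.9%, 12.9 to 15.01) in the metformin library, a ratio of 0.994 (0.889 to 1.11). Giving the 15 compared classes equal weight, the mean shares were 15.4% and 14.4%. The state is a range of a score and not a cell type: 344 control and 307 metformin cells had 3 core genes, just under the boundary, and 220 and 227 cells had 4.

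Arg1 macrophages had the highest share of high cells of the compared classes in both libraries. It was 54.6% (49.2 to 59.96; 189 of 346 cells) in the control and 41.9% (36.6 to 47.4; 140 of 334 cells) in the metformin library, a ratio of 0.767 (0.612 to 0.960). CD8 T cells had 21.1% (17.8 to 24.8) and 15.5% (12.6 to 18.9), a ratio of 0.734 (0.548 to 0.982). Of the 8 classes that had 20 or more high cells on both sides, these were the only ones whose ratio interval lay off 1. That interval treats high cells as Poisson counts, so it is wider than a binomial interval, most of all where shares are large. Conventional dendritic cells had 30.1% and 29.5%, Klra1/Klra6 T cells 27.8% and 26.8%, and conventional CD4 T cells 15.1% and 16.9%. Within the 3 CD4 clusters the shares were 39.3% and 36.4%, 5.03% and 3.36%, and 3.80% and 3.57%, and the cluster with most high cells held 168 of 551 control and 140 of 343 metformin cells. Regulatory T cells had 15.6% (11.3 to 20.7) and 11.6% (7.98 to 16.2), and NK cells 11.1% and 10.3%. At the other end, P2ry12 microglia had 1.22% (0.559 to 2.30) and 0.828% (0.226 to 2.11), and B cells 3.16% and 2.03%. Gamma-delta T cells, at 60 and 49 cells too few to compare, had 6 of 58 and 3 of 46 high cells.

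**Figure D2:**
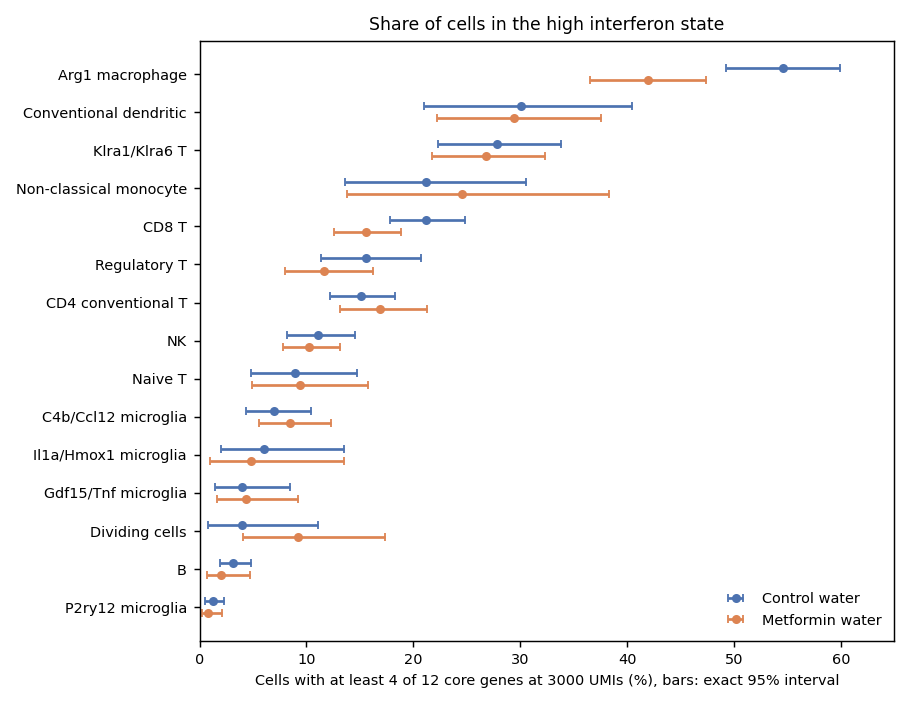
Share of cells in the high interferon state (points, percent) with exact 95% intervals (bars) for the 15 compared classes in the control library (blue) and the metformin library (orange). Arg1 macrophages stand apart at 54.6% and 41.9%, and P2ry12 microglia are lowest at 1.22% and 0.828%.

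The shape of the score differed between classes, as the bars of core genes per cell show. In Arg1 macrophages the cells spread over the whole range, with 12 control and 23 metformin cells at 0 core genes and 51 and 34 cells at 8 or more. Non-classical monocytes were split: 45.5% of control and 39.6% of metformin cells had no core gene, while 15 of the 21 control high cells and 6 of the 13 metformin high cells had at least 8. Within CD8 T cells the high cells were concentrated in 1 cluster, where 72 of 173 control cells (41.6%) and 39 of 121 metformin cells (32.2%) were high, against 5.36% to 15.96% of control and 5.41% to 15.3% of metformin cells in the other 3 CD8 clusters. That cluster held 173 of 544 control and 121 of 541 metformin CD8 T cells, so the make-up of the class differed between libraries; the part of this in the class ratio was not tested.

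**Figure D3:**
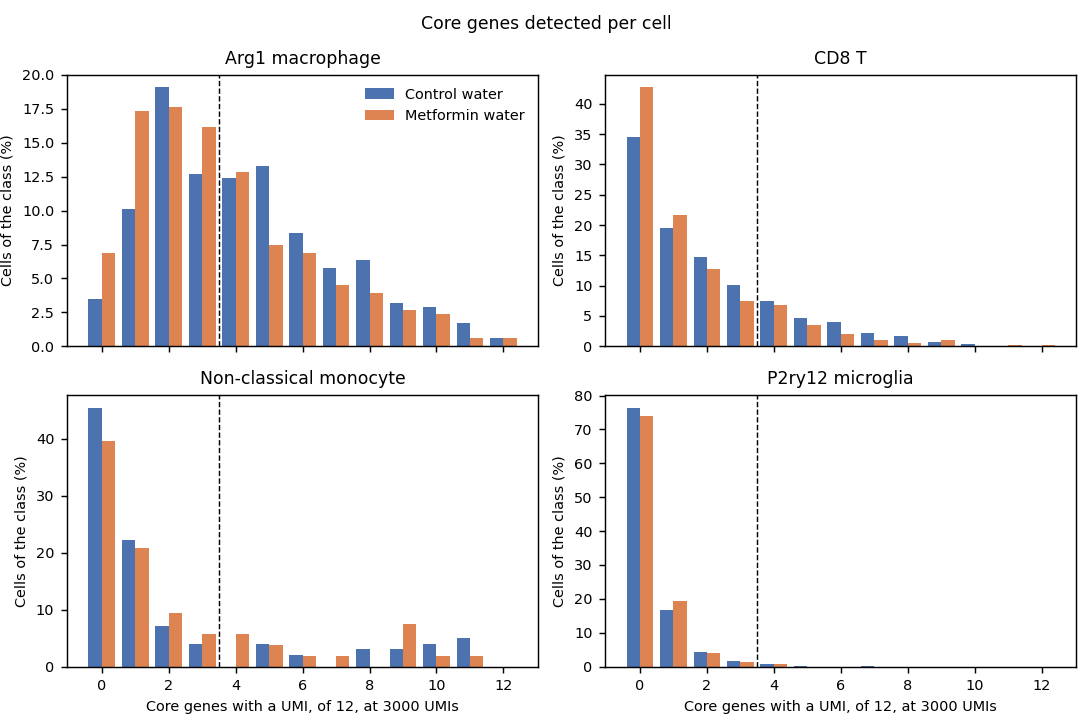
Percent of cells (vertical axis, scale differs between panels) by number of the 12 core genes with a UMI at 3000 UMIs (horizontal axis) in 4 classes, control library blue and metformin library orange; the dashed line marks the boundary of 4 genes. Arg1 macrophages spread over all values, non-classical monocytes are mostly at 0 or 1 with further cells at 8 or more, and P2ry12 microglia sit at 0 and 1.

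The ratio of each member between libraries was then taken class by class over UMIs summed per class. A member was called when it had at least 40 UMIs over both libraries, a ratio of at least 1.5 in either direction and an interval without 1. Over all cells no member was called higher or lower, where 3.65% and 2.84% of 14084 genes were. The 36 ratios over all cells lay between -0.22 and 0.22 on the log2 scale, 14 above 1 and 22 below. Within classes 26 calls were higher in the metformin library and 44 lower, in 70 pairs of member and class. Each class had 26 to 36 members measured. Of all genes measured in a class, 1.04% to 4.78% were called higher and 1.34% to 6.34% lower.

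In Arg1 macrophages all 36 members were below 1, with a median log2 ratio of -0.48 against -0.02 over all 8943 genes, and 10 were called lower and 0 higher, where 3.4% and 3.11% of genes were. Mx1, a gene of the dynamin-like GTPase family, had 491 UMIs or 116 CPM in the control and 326 UMIs or 64.7 CPM in the metformin library, a ratio of 0.555 (0.481 to 0.640). Ifit2 had 238 and 143 CPM, a ratio of 0.599 (0.543 to 0.660). Stat2, the partner of IRF9, had 168 and 102 CPM, a ratio of 0.604 (0.538 to 0.678). The ADP-ribosyltransferase family member Parp14 had 331 and 206 CPM, a ratio of 0.622 (0.574 to 0.675). No cell held more than 5.67% of the UMIs of any of these 4 genes. Cmpk2, a mitochondrial nucleotide kinase, had 35.8 and 18.6 CPM, a ratio of 0.520 (0.398 to 0.678); 1 control cell held 26.5% of its UMIs, and without the richest cell of each library the ratio was 0.595. Ifit1, Ifit3, Isg20, Oas2 and Ifi44 made up the other lower calls, with ratios from 0.630 to 0.661. Lgals3bp (log2 ratio -0.03) and Irf9 were closest to 1.

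Monocyte transcripts moved with this difference. The 6 monocyte markers summed to 5251 CPM in the control and 4013 CPM in the metformin macrophages, a ratio of 0.764 (0.750 to 0.779). All 6 were detected, 5 of them with intervals below 1: Chil3 had 118 and 45.6 CPM, Plac8 2862 and 2117 CPM. Of 7 macrophage markers 5 had intervals above 1, Ms4a7 at 235 and 414 CPM among them, while Arg1 itself was 978 and 398 CPM. The cells were therefore divided at the median of 10 monocyte marker UMIs per 3000, a division chosen after the data were seen. Among cells at or below it the high share was 31.3% and 26.9%, a ratio of 0.860 (0.568 to 1.30). Among cells above it the share was 72.4% and 62.4%, a ratio of 0.861 (0.653 to 1.13). Both ratio intervals treat high cells as Poisson counts and are wider than binomial intervals would be at such shares. The cells above the median were 56.6% of control and 42.2% of metformin macrophages. Members called lower were then 1 of 36 and 4 of 36 (32 and 33 below 1), where 4.34% and 3.504% of genes were. With the high cells left out, 2 members were called lower. High cells were picked by members of the list, so leaving them out removes part of the compared values by construction. The share of all genes called was not computed without them. The part of the monocyte transcripts in the undivided difference was not otherwise tested.

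B cells had 11 lower and 0 higher calls among 35 members, where 2.27% and 2.18% of 7991 genes were, and a median log2 ratio of -0.45 against 0.02 over all genes. Ifit3 had 273 UMIs or 59.8 CPM in the control and 28 UMIs or 16.2 CPM in the metformin library, a ratio of 0.270 (0.176 to 0.399). Irf7 had 128 and 60.6 CPM, a ratio of 0.473 (0.381 to 0.584). Slfn5 had 85.9 and 46.8 CPM, a ratio of 0.544 (0.423 to 0.693). The abundant Ifi27l2a had 1959 (1919 to 2000) and 1258 (1205 to 1312) CPM, a ratio of 0.642 (0.612 to 0.673). Few B cells were high (20 of 633 and 5 of 246), and the median log2 ratio was -0.65 without them. Of the 11 calls, 7 held under each of the 11 alternatives that gave them a value. The B markers were near level (0.92 as a sum), whereas the plasma cell list was lower (0.702), chiefly Jchain at 327 and 4.04 CPM, and neutrophil markers were at 21.3 and 7.50 CPM; their part in the result was not tested.

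Regulatory T cells had 8 lower and 0 higher calls among 35 members, where 3.34% and 1.37% of 7754 genes were, with a median log2 ratio of -0.29. All 4 Ifit genes were among the 8. Ifit1 had 141 and 82.3 CPM, a ratio of 0.582 (0.484 to 0.699), and Ifit3b 33.6 and 16.2 CPM, a ratio of 0.482 (0.317 to 0.723). Ifit3 had 133 and 84.8 CPM, a ratio of 0.635 (0.528 to 0.764). The brake Usp18 had 80.1 and 48.2 CPM, a ratio of 0.601 (0.470 to 0.766), and the RNA sensor Ifih1 (MDA5) 37.3 and 23.4 CPM, a ratio of 0.629 (0.438 to 0.897). Ifi27l2a did not follow, with a ratio of 0.997 (0.979 to 1.02). The 4 naive T cell markers summed to 275 and 179 CPM, each with an interval below 1, and their part in the result was not tested. Without the 5 cells of each library richest in member UMIs, 5 members were called lower.

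CD8 T cells had 33 of 34 members below 1 and a median log2 ratio of -0.22, but 1 lower and 0 higher calls, where 2.18% and 1.58% of 9065 genes were. The call was Ifih1, 30.8 and 20.3 CPM, a ratio of 0.660 (0.517 to 0.841). Marker lists differed too. The 7 NK markers summed to 5188 and 3892 CPM, with Gzma below 1 (4701 and 3359 CPM), 2 others above 1 and Ncr1 at 0 in the control. The 5 CD8 T cell markers had a summed ratio of 0.944, 4 of them with intervals below 1, and the 6 monocyte markers 1.28, 4 with intervals above 1 and Chil3 and Vcan at 0 in the metformin library. The part of these markers was not tested. Conventional dendritic cells had 4 lower calls of 36 (4.04% of genes lower, 3.3% higher): Mx1 with 142 and 84.3 CPM (ratio 0.595, 0.489 to 0.723), Rtp4 with 104 and 65.5 CPM (0.627, 0.5005 to 0.785), Parp14 with 193 and 122 CPM (0.635, 0.539 to 0.748) and Ddx58 with 54.9 and 35.3 CPM (0.642, 0.470 to 0.878). For Mx1 and Ddx58, 1 control cell held 22.5% and 22.2% of the UMIs, and without the richest cells neither was called. Beside these calls, the macrophage list was at 2335 and 1215 CPM in the dendritic cells, the microglia list at 442 and 230.5 CPM and the B list at 42.0 and 8.23 CPM. The markers of type 1 dendritic cells had a summed ratio of 1.13 and those of type 2 0.771, and the part of these was not tested. In conventional CD4 T cells Irf9, Oas1a and Ifi44 were called lower and Oas2 higher of 35 members (3.19% of genes lower, 1.04% higher). Irf9 had 96.3 and 63.3 CPM there, a ratio of 0.657 (0.557 to 0.773), and Oas1a 16.99 and 9.85 CPM, a ratio of 0.579 (0.376 to 0.874). Ifi44, on 36 and 11 UMIs, had a ratio of 0.467 (0.214 to 0.937), and Oas2, on 17 and 25 UMIs, 2.25 (1.17 to 4.43). NK cells had 1 lower call of 35, Ifi27l2a with a ratio of 0.608 (0.533 to 0.694), where 1.85% of genes were lower and 1.18% higher. With NK cells taken by a gate on marker UMIs in place of clusters, the ratio of Ifi27l2a was 1.14.

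No member was called in Klra1/Klra6 T cells (34 measured; 1.41% of genes higher, 2.74% lower) or in P2ry12 microglia (31 measured; 1.11% higher, 1.34% lower). Of these classes the former had 27.8% and 26.8% of its cells high and the latter 1.22% and 0.828%. Their median log2 ratios were -0.05 and 0.01.

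**Figure D4:**
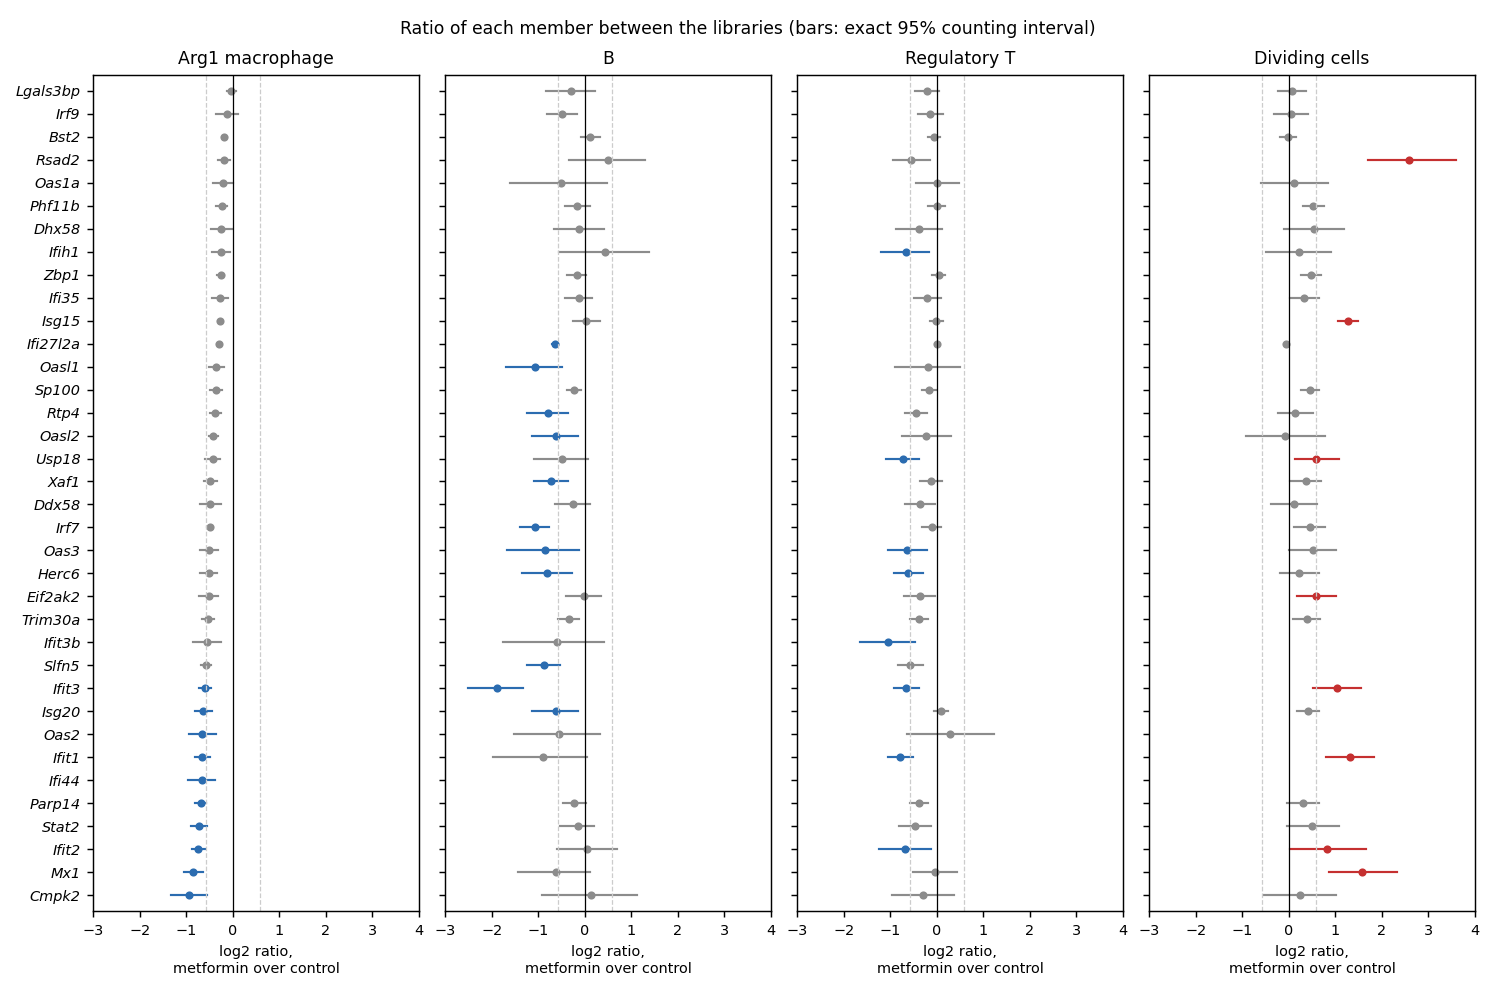
Log2 ratio of metformin over control (points) with exact 95% counting intervals (bars) for each member with at least 40 UMIs in 4 classes; calls are blue (lower) or red (higher), and dashed lines mark a 1.5-fold ratio. All 36 points lie left of 0 in Arg1 macrophages, 29 of 35 in B cells and 31 of 35 in regulatory T cells, and 28 of 31 lie right of 0 in dividing cells.

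Dividing cells went the other way, with 8 higher and 0 lower calls among 31 members, where 3.94% and 5.93% of 7417 genes were, and a median log2 ratio of 0.41. Isg15 had 257 UMIs or 136 CPM in 76 control cells and 681 UMIs or 327 CPM in 88 metformin cells, a ratio of 2.41 (2.08 to 2.79). Rsad2 had 12 and 79 UMIs, a ratio of 5.98 (3.24 to 12.1), and Ifit1 23.3 and 57.7 CPM, a ratio of 2.48 (1.74 to 3.59). Mx1 had 22 and 72 UMIs, a ratio of 2.97 (1.82 to 5.04). This class mixes lineages, and its make-up differed between libraries: Cd8b1 had 280 and 676 CPM, Gzma 784 and 1779 CPM, Cd79a 115 and 26.4 CPM and Jchain 605 and 0.480 CPM. The part of this make-up in the member ratios was not tested. Without the 5 richest cells of each library, 4 members were called higher.

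In Gdf15/Tnf microglia 6 members were called higher and 1 lower of 31, where 1.85% and 2.95% of genes were. For each gene the richest metformin cell carried much of this: it held 58.3% of the Ifit1 UMIs, 49.8% of Isg15, 41.2% of Ifit3b and 38.8% of Ifit3. Ifit3b had 13 and 68 UMIs, a ratio of 5.81 (3.18 to 11.46), Ifit3 84 and 201 UMIs, a ratio of 2.66 (2.05 to 3.47), and Ifit1 36 and 84 UMIs, a ratio of 2.59 (1.73 to 3.94). Oasl2, the lower call, had 90 and 54 UMIs, a ratio of 0.666 (0.466 to 0.943). Isg15 had 127 and 224 CPM, a ratio of 1.76 (1.47 to 2.11), and 0.972 without the richest cell of each library. Without the 5 richest cells of each library no member was called higher and the median log2 ratio was -0.26, so the higher calls rest on a few cells. With variable genes drawn from all genes for the clustering, no member was called higher there either, and Isg15 had a ratio of 0.764.

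The other classes had few calls. C4b/Ccl12 microglia had Rsad2, Oasl1 and Ifit1 higher of 36 (2.37% of genes higher, 2.9% lower), Oasl1 at 11.3 and 23.8 CPM, a ratio of 2.12 (1.41 to 3.24). Rsad2 had 70 and 175 UMIs, a ratio of 2.29 (1.72 to 3.06), with 41.7% of the metformin UMIs in 1 cell, and Ifit1 66 and 122 UMIs, a ratio of 1.69 (1.24 to 2.32). Il1a/Hmox1 microglia had 3 higher and 2 lower of 26 (3.36% and 4.29%), Ifi27l2a at 305 and 529 CPM, a ratio of 1.73 (1.48 to 2.03), Lgals3bp (1.56, 1.297 to 1.88) and Zbp1 (1.54, 1.09 to 2.19) being higher and Parp14 (0.589, 0.421 to 0.817) and Ifih1 (0.652, 0.436 to 0.963) lower. Naive T cells had Stat2, Rsad2 and Herc6 higher of 27 (1.78% higher, 2.51% lower), each on at most 82 UMIs in a library, with ratios of 2.02 (1.22 to 3.41), 1.90 (1.08 to 3.44) and 1.67 (1.18 to 2.39). Non-classical monocytes had Ddx58 and Oas2 higher and Ifit2, Oasl1 and Dhx58 lower of 35 (4.78% and 6.34%). Ifit2 there had 299 UMIs or 269.7 CPM and 79 UMIs or 135 CPM, a ratio of 0.501 (0.386 to 0.644). The other ratios there were 1.80 (1.28 to 2.51) for Ddx58, 1.97 (1.11 to 3.51) for Oas2, 0.643 (0.433 to 0.937) for Oasl1 and 0.60 (0.367 to 0.951) for Dhx58. Of other cell types, the CD8 T cell markers were at 25.3 and 224 CPM in these monocytes and the CD4 T cell markers at 25.3 and 157 CPM, and their part in the calls was not tested.

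Read by the 7 roles, the 4 tetratricopeptide genes had the lowest median log2 ratio in Arg1 macrophages (-0.63), regulatory T cells (-0.72), B cells (-0.70) and CD8 T cells (-0.47). The median of these genes was above 0 in some other classes, at 1.38 in Gdf15/Tnf microglia, 1.03 in dividing cells, 0.25 in C4b/Ccl12 microglia, 0.24 in naive T cells and 0.22 in conventional CD4 T cells. In the remaining classes it was below 0, from -0.10 in non-classical monocytes to -0.45 in Il1a/Hmox1 microglia. In the latter these genes also had the lowest median of the roles, on 2 measured genes. The summed level of the 4 genes was 753 and 480 CPM in Arg1 macrophages, 340 and 203 CPM in regulatory T cells, 97.1 and 45.6 CPM in B cells and 439 and 318 CPM in CD8 T cells. Calls among these 4 genes were 3, 4, 1 and 0 lower in those classes. The 5 nucleic acid sensor genes, the RNA-activated kinase Eif2ak2 included, had 984 and 800.2 CPM in Arg1 macrophages, with medians of -0.26 there and -0.10 in B cells and no call in either. Ifi35, Bst2, Trim30a, Phf11b and Sp100 were called in none of the 15 classes.

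**Figure D5:**
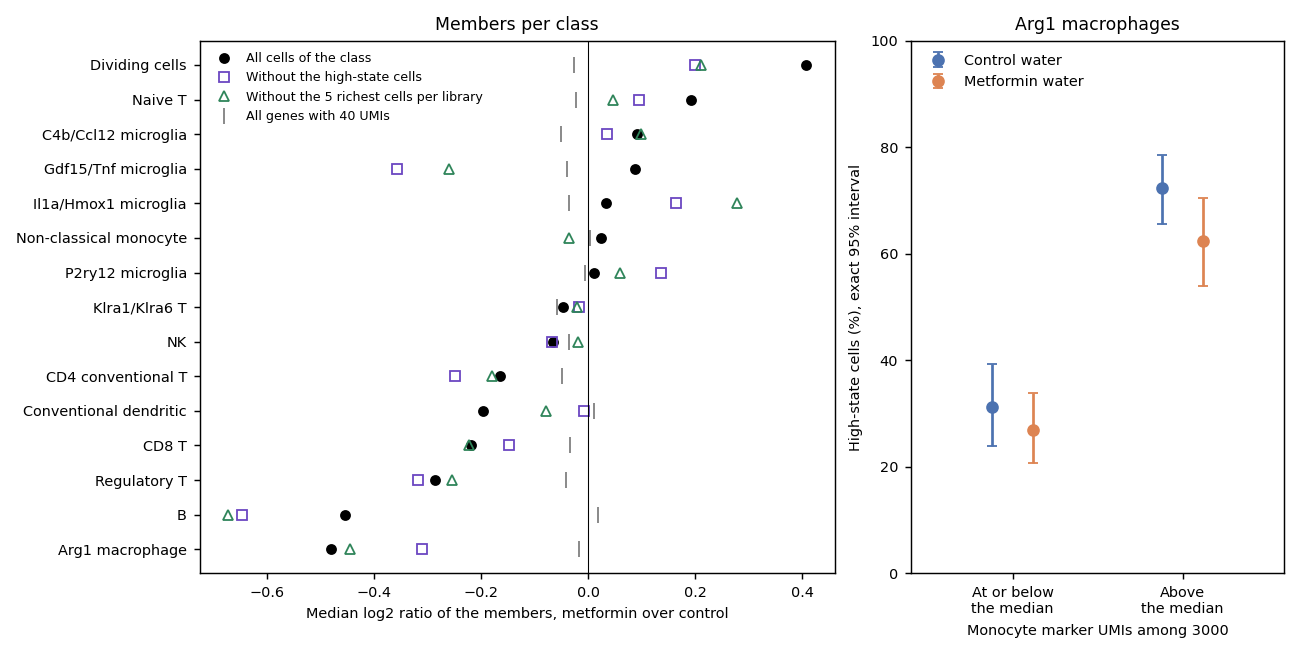
Left, median log2 ratio of the members per class (metformin over control) for all cells (black), without high cells (squares), without the 5 richest cells of each library (triangles), and for all genes with 40 UMIs (grey ticks). Right, high-state share of Arg1 macrophages with exact 95% intervals, divided at the median of 10 monocyte marker UMIs per 3000. Gdf15/Tnf microglia change side without their richest cells (0.09 to -0.26), and within both macrophage divisions the intervals of the libraries overlap.

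Upstream of the members, the ligands were close to undetected. Of 18 type I ligand genes, 14 had no UMI in either library, 13 Ifna genes among them. Ifnb1, interferon beta, had 25 UMIs in 18 control cells and 57 UMIs in 20 metformin cells, a ratio of 2.42 (1.49 to 4.04), called higher. The numbers of cells were alike, and single metformin cells held as many as 15 UMIs, against 4 in the control. Microglial classes and Pf4/Mrc1 macrophages held most of them: 22 metformin UMIs came from 5 Pf4/Mrc1 macrophages and 15 from 3 Il1a/Hmox1 microglia. Arg1 macrophages, the class highest in core gene level, had 0 and 1 Ifnb1 UMIs. Ifng, interferon gamma, was abundant by contrast, with 4671 and 4877 UMIs over all cells and a ratio of 1.11 (1.06 to 1.15).

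The receptor genes were near level over all cells, Ifnar1 with 68.9 and 68.6 CPM and Ifnar2 with 109 and 114 CPM. In Arg1 macrophages 0 of 9 measured genes of the receptor and signalling list were called. Their median log2 ratio there was -0.18, against -0.02 over all genes. Elsewhere 1 gene of the list was called lower in regulatory T cells, dividing cells and naive T cells each, and 1 higher in B cells. Socs1, a brake on JAK kinases, had 87.1 and 51.2 CPM in Arg1 macrophages, a ratio of 0.588 (0.499 to 0.691), and was called lower. Cxcl10, a chemokine for activated T cells, was called lower in CD8 T cells, with 62.6 and 30.6 CPM, and in regulatory T cells, with 136 and 63.5 CPM, but not in Arg1 macrophages, with 917 and 781 CPM. Regulatory T cells had more Ifng in the metformin library, 22.6 and 54.6 CPM, a ratio of 2.42 (1.73 to 3.43), on 49 and 128 UMIs. Ifng was also called higher in conventional dendritic cells, on 12 and 108 UMIs, and in dividing cells, on 211 and 520 UMIs.

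Interferon-stimulated genes outside the members were also counted class by class. Of 60 measured in Arg1 macrophages 8 were called lower and 1 higher (3.4% and 3.11% of all genes), with a median log2 ratio of -0.38. Slfn4 was lower there (182 and 98.6 CPM, a ratio of 0.542, 0.483 to 0.607), and Ccl12, a monocyte chemokine, was higher (89.2 and 214 CPM, a ratio of 2.39, 2.13 to 2.70). B cells had 8 lower and 1 higher of 50 (2.27% and 2.18% of all genes), regulatory T cells 9 lower and 0 higher of 54 (3.34% and 1.37%), and dividing cells 13 higher and 4 lower of 52 (3.94% and 5.93%). Of genes induced mainly by interferon gamma, 5 of 23 were called lower in Arg1 macrophages, among them Iigp1 with 238 and 129 CPM, and 0 of 20 in regulatory T cells. Irf1 had 123 and 132 CPM over all cells.

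High cells were last set beside the other cells of their class for genes that had not defined them, in each library on its own, as a description. Of the 24 members outside the core, 23 of 24 measured were higher in high Arg1 macrophages in both libraries, 22 of 22 in CD8 T cells, 23 of 23 in conventional dendritic cells, 21 of 23 in NK cells and 19 of 23 in C4b/Ccl12 microglia. None was lower in both libraries in any of these 8 classes with enough high cells. The high cells were chosen by core genes of the same response, so these counts are no separate support. The share of all genes higher in high cells is not given here. In Arg1 macrophages, 53 of 58 other interferon-stimulated genes and 20 of 22 genes induced mainly by interferon gamma were also higher in both libraries. The accompanying genes differed between classes. Of the high CD8 T cells, 72 of 115 in the control and 39 of 84 in the metformin library lay in 1 cluster. The part of this cluster in the CD8 T cell values was not tested. In CD8 T cells Slfn5 led, with 259 CPM in high and 22.2 in other control cells and 268 and 16.3 CPM in the metformin library, ratios of 11.7 and 16.5. Ifih1 followed among the members, with ratios of 5.45 and 7.12, and Cxcl10 outside them, with 9.61 and 10.5. Of genes in no interferon list, Ube2l6, the conjugating enzyme for ISG15, led CD8 T cells, with ratios of 6.63 and 4.90. In Arg1 macrophages Isg20 led the members, with 267 and 43.5 CPM in high and other control cells and 210.4 and 39.4 CPM in the metformin library, ratios of 6.15 and 5.34. Trim30c (10.7 and 7.30), Ifit1bl1 (5.76 and 10.97) and Slfn4 (5.29 and 6.78) led the other interferon genes there. Among genes in no interferon list stood the monocyte-associated Ifitm6 with ratios of 6.12 and 4.57 and Chil3 with 3.503 and 3.95.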

How the data were processed

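The deposited matrices hold UMI counts per gene and cell barcode. Per the file headers they were written with software version 3.0.0, and the submitters' processing notes name Cell Ranger, Seurat and the mm10 build; their settings are not stated in what was used here. The matrices held 6174 and 5473 barcodes with 49651404 and 47142356 UMIs. The members, gene lists and marker lists were chosen with earlier results of these data known.

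Cells with at least 300 genes and at most 10% mitochondrial UMIs were kept, and Scrublet marked 62 (1.14%) and 37 (0.803%) doublets for removal. Both libraries were clustered together with scanpy 1.11.5 (2000 variable genes without the interferon, cell cycle and stress lists, 30 components, 15 neighbours, Leiden). UMIs were summed per class and library and scaled to CPM. Levels have exact Poisson and ratios of CPM exact conditional intervals (scipy 1.17.1), shares Clopper-Pearson intervals, all at 95% and for counting error only. Ratios of shares took the same conditional interval, with high cells as Poisson counts and cell numbers as totals, which is wider than exact. Medians of log2 ratios add 0.5 UMI. Cells from 1 library are not replicates, so no p-value was computed. All members may be named. Values are given in full for up to 4 higher and 4 lower calls per class whose interval bound lies farthest from 1; up to 3 genes of other lists were ranked alike, beside fixed pathway genes; some genes the rule names are not reported here. Genes accompanying high cells were ranked by the smaller of both libraries' ratios. Marker genes were named after their values were seen. The ratio and thinning calculations were tested on simulated data. Positions come from GENCODE M21 (GRCm38), promoters from RefSeq. Protein sequences were not analysed here. The alternatives tried were 21, 3 of them chosen after seeing the data.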

Additional observations from a re-analysis of the deposited data

Results flagged for a closer look

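For 9 members, calls of higher in 1 class and lower in another also held without the cell richest in the gene. The share of all genes called both ways over the classes is not given here, so the number of members is not set against it. Ifit2, Usp18, Ifih1 and Ddx58 were called both ways as well, but not in both directions without that cell. Values are ratios of metformin over control. The difference between the classes was not tested, and counting error is the only error in the intervals given in the report. Ifit1 had a ratio of 2.48 in dividing cells and 0.582 in regulatory T cells. Mx1 had 2.97 in dividing cells and 0.555 in Arg1 macrophages. Ifit3 had 2.66 in Gdf15/Tnf microglia and 0.270 in B cells, and Ifit3b 5.81 in Gdf15/Tnf microglia and 0.482 in regulatory T cells. Without the 5 cells of each library richest in member UMIs, the Gdf15/Tnf microglia ratios turned to 0.606 for Ifit3 and 0.872 for Ifit3b. Oas2 had 1.97 in non-classical monocytes and 0.637 in Arg1 macrophages. Oasl1 had 2.12 in C4b/Ccl12 microglia and 0.477 in B cells. Stat2 had 2.02 in naive T cells and 0.604 in Arg1 macrophages, and Herc6 1.67 in naive T cells and 0.655 in regulatory T cells. Ifi27l2a had 1.73 in Il1a/Hmox1 microglia and 0.642 in B cells.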

How the results depend on the processing

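Of the values that answer a comparison, 222 were labelled as unchanged under the alternatives, 39 as moved and 1 as reversed. For single genes these counts were 677, 61 and 19. The labels do not count changes of direction, as some values labelled moved also changed side. The median log2 ratio in Gdf15/Tnf microglia went from 0.09 to -0.25 with variable genes drawn from all genes. The ratio of high shares in conventional CD4 T cells went from 1.12 to 0.781 with at least 6 core genes. Where no cause follows from the alternative's own construction, the cause was not tested. Of 70 calls, 15 held in every alternative that gave them a value. Among them were Ddx58, Ifit2 and Oasl1 in non-classical monocytes, where only 6 alternatives gave a value, against 9 to 11 in other classes. Of the Arg1 macrophage calls, only Stat2 was among the 15. With at least 6 core genes the ratio of high shares was 0.781 in conventional CD4 T cells and 1.77 in conventional dendritic cells, with at least 15 member UMIs it was 0.787 in conventional CD4 T cells, and with thinning to a smaller number of UMIs it was 0.495 in CD8 T cells. For the counts of called members under the alternatives, the share of all genes called was computed only for the divided macrophages. With 500 genes and 5% mitochondrial UMIs as limits, the median log2 ratio in conventional CD4 T cells was -0.26 and 5 members were higher in dividing cells. With variable genes drawn from all genes, the medians were -0.30 in conventional CD4 T cells and -0.25 in Gdf15/Tnf microglia, where 0 members were higher and the ratios were 0.720 for Ifit1, 0.617 for Ifit2, 0.368 for Ifit3 and 0.764 for Isg15. With each library clustered alone, the medians were -0.26 in conventional CD4 T cells and 0.083 in conventional dendritic cells, a reversal, with 1 lower call in the latter. With classes from a marker gate, the NK ratio of Ifi27l2a was 1.14.

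Without the richest cell per gene, calls of higher members over all classes were 17, with 5 in dividing cells and 3 in Gdf15/Tnf microglia (Isg15 0.972). Conventional dendritic cells had 2 lower calls and the B cell median was -0.65. The share of all genes called was not computed without those cells. With each cell weighted equally, the medians were -0.62 in B cells and -0.030 in conventional CD4 T cells. Without high cells, 2 members were lower in Arg1 macrophages, 4 were higher in dividing cells and 0 in Gdf15/Tnf microglia; the medians were -0.65 in B cells, -0.25 in conventional CD4 T cells, -0.0080 in conventional dendritic cells, 0.20 in dividing cells and -0.36 in Gdf15/Tnf microglia. The ratios then were 0.314 for Ifit1, 0.472 for Ifit2, 0.475 for Ifit3, 0.905 for Ifit3b and 0.486 for Isg15 in Gdf15/Tnf microglia, 0.981 for Ifit1 in C4b/Ccl12 microglia, 0.915 for Ifit2 in dividing cells and 0.685 for Rsad2 in naive T cells. Non-classical monocytes gave no value there, having too few cells. With 100 UMIs required, 5 members were higher in dividing cells.

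The remaining alternatives were chosen after seeing the data. Without the 5 cells of each library richest in member UMIs, 14 calls were higher over all classes. Of these 4 were in dividing cells and 0 in Gdf15/Tnf microglia, and lower calls were 1 in conventional dendritic cells and 5 in regulatory T cells. The share of all genes called was not computed for this alternative. The medians were then -0.67 in B cells, 0.21 in dividing cells, -0.26 in Gdf15/Tnf microglia and 0.28 in Il1a/Hmox1 microglia, and the Gdf15/Tnf microglia ratios were 0.399 for Ifit1, 0.746 for Ifit2, 0.606 for Ifit3, 0.872 for Ifit3b and 0.630 for Isg15. In Arg1 macrophages at or below the median of monocyte marker UMIs 1 member was lower, with a median log2 ratio of -0.27, and above it 4 were. No paired analysis was possible because each group had 1 library. Where a class holds few UMIs of a gene, single cells can carry its ratio.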
